A study of Mus musculus with 9 samples.

Results

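Dicer1 and 9 further genes of the core microRNA (miRNA) machinery were followed in messenger RNA from mouse oviduct tumors and normal mouse oviducts. They were chosen by name as the entries of the deposited table with the symbol Dicer1, Drosha, Dgcr8, Xpo5, Tarbp2, Prkra, Ago1, Ago2, Ago3 or Ago4. All 10 were present among 19435 genes. The tumors, numbered 1 to 4, were primary tumors of the oviduct with the genotype Dicer1ko/D1693N, which leaves D1693N as their remaining Dicer1 allele. The normal oviducts were 3 of genotype Dicer1+/D1693N (oviducts 1 to 3), which carry the same missense allele beside a normal one, and 2 of genotype Dicer1+/+ (oviducts 4 and 5). The tissues were untreated. Strain, age, the agent that made the knockout allele and whether each library came from a separate mouse were not given in the sources used here, so p-values measure only the spread between these samples, which may in part be technical.

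MicroRNAs are short RNAs that guide Argonaute proteins to messenger RNAs, which are then translated less and degraded faster. In the nucleus, DROSHA and its partner DGCR8 form the Microprocessor and cut a hairpin out of the primary transcript. XPO5 carries the hairpin to the cytoplasm, where DICER1, held by the double-stranded RNA binding proteins TARBP2 or PRKRA, cuts off the loop. An Argonaute then keeps a single strand of the duplex. DICER1 has a pair of RNase III domains, and the RNase IIIb domain makes the cut that frees the strand of the 5′ arm. In people, DICER1 tumor predisposition typically pairs loss of an allele with a missense change at a metal-binding residue of RNase IIIb. In mice, loss of Dicer1 from the mesenchyme of the developing female tract is known to give malformed oviducts and sterility.

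The D1693N allele is named for the codon it changes, counted along the mouse coding sequence of 1906 codons. In the GENCODE M21 transcript ENSMUST00000041987.6 the codon lies in exon 24 of 27, on the minus strand of GRCm38 at chr12:104694715-104694717. The normal sequence of chr12:104694703-104694729 is shown because it holds the residue that this allele changes, with the aspartate codon in capitals.
Dicer1 codon changed in D1693N: gaattcctgggaGATgcgattttggac
The deposited table holds 1 value per gene and library. It does not tell knockout, D1693N and normal transcripts apart, so the Dicer1 level cannot check the genotype labels.

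The tumor libraries held 8732190 to 11267144 reads and the oviduct libraries 8504993 to 12526078. Levels are normalized counts, that is, reads divided by the size factor of the library, recovered from the deposited log2 values. Differences are between mean deposited log2 values, with their standard error, tested with limma over all genes and called at an adjusted p under 0.05. The tumors and oviducts differed widely in markers of cell types. The 5 fixed markers of dividing cells summed to 3033 to 5547 normalized counts in tumors and 204 to 441 in oviducts, and all 5 rose. The 5 markers of oviduct epithelium summed to 10508 to 19209 in tumors and 89502 to 165016 in oviducts. Of these only Ovgp1 and Foxj1 passed, with log2 differences of -4.88 and -6.28. Pax8 (-0.75), Epcam (-0.38) and Krt8 (-0.38) did not pass. Macrophage markers (4 of 5 in the table) summed to 2012 to 14265 in tumors and 1815 to 2517 in oviducts, and the 4 endothelial markers to 3599 to 7037 in tumors and 1461 to 2534 in oviducts. In each of these lists 3 of the 4 genes passed, all higher, while Csf1r (0.88) and Kdr (0.61) were higher without passing. Ovarian somatic cell markers summed to 98.8 to 598 in tumors and 347 to 2551 in oviducts 2 to 5, and to 16855 in oviduct 1. Among them Cyp11a1, which encodes the first enzyme of steroid synthesis, fell by 5.21 ± 1.32 on the log2 scale (limma adjusted p = 0.0132). Star (-1.98), Inha (-1.48), Amh (-0.97) and Fshr (-0.51) were lower as well but did not pass. Of the other fixed lists, smooth muscle markers summed to 2745 to 66599 in tumors and 29693 to 65974 in oviducts. Among them Myh11 (-2.604) and Cnn1 (-2.505) passed, while Acta2 (-1.24), Tagln (-1.09) and Des (-1.07) were lower without passing. T and B cell markers summed to 60.8 to 588 in tumors and 30.7 to 582 in oviducts. Oocyte markers (4 of 5 in the table) summed to 1.9 to 36.3 in tumors and 16.7 to 88.2 in oviducts. No marker of these last lists passed. Fat cell markers reached 32693 in tumor 4, against 29.3 to 88.4 in the other tumors and 1149 to 10182 in oviducts, and red cell markers 49369 in tumor 1, against 1026 to 1564 in the other tumors and 891 to 1696 in oviducts. The part of these cells in the differences of the miRNA genes was not tested. In bulk tissue, fewer cells of a type and less RNA per cell cannot be told apart.

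Among the 10 genes, Tarbp2 and Prkra, which encode the double-stranded RNA binding partners of DICER1, rose in the tumors. Dicer1 itself, the Microprocessor genes Drosha and Dgcr8, the exporter Xpo5 and the 4 Argonaute genes did not pass the test. These 2 of 10 genes compare with 31.1% of all 19435 genes called in either direction and 12.6% called higher, so 2 of 10 is near the background. With a log2 difference of at least 1 required as well, 0 of 10 members passed by limma, against 18.7% of all genes. Without adjustment 3 of 10 had a p under 0.05, against 42.1% of all genes. The median log2 difference was 0.00 over the 10 members, 5 of them above 0, and -0.05 over all genes.

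**Figure D1:**
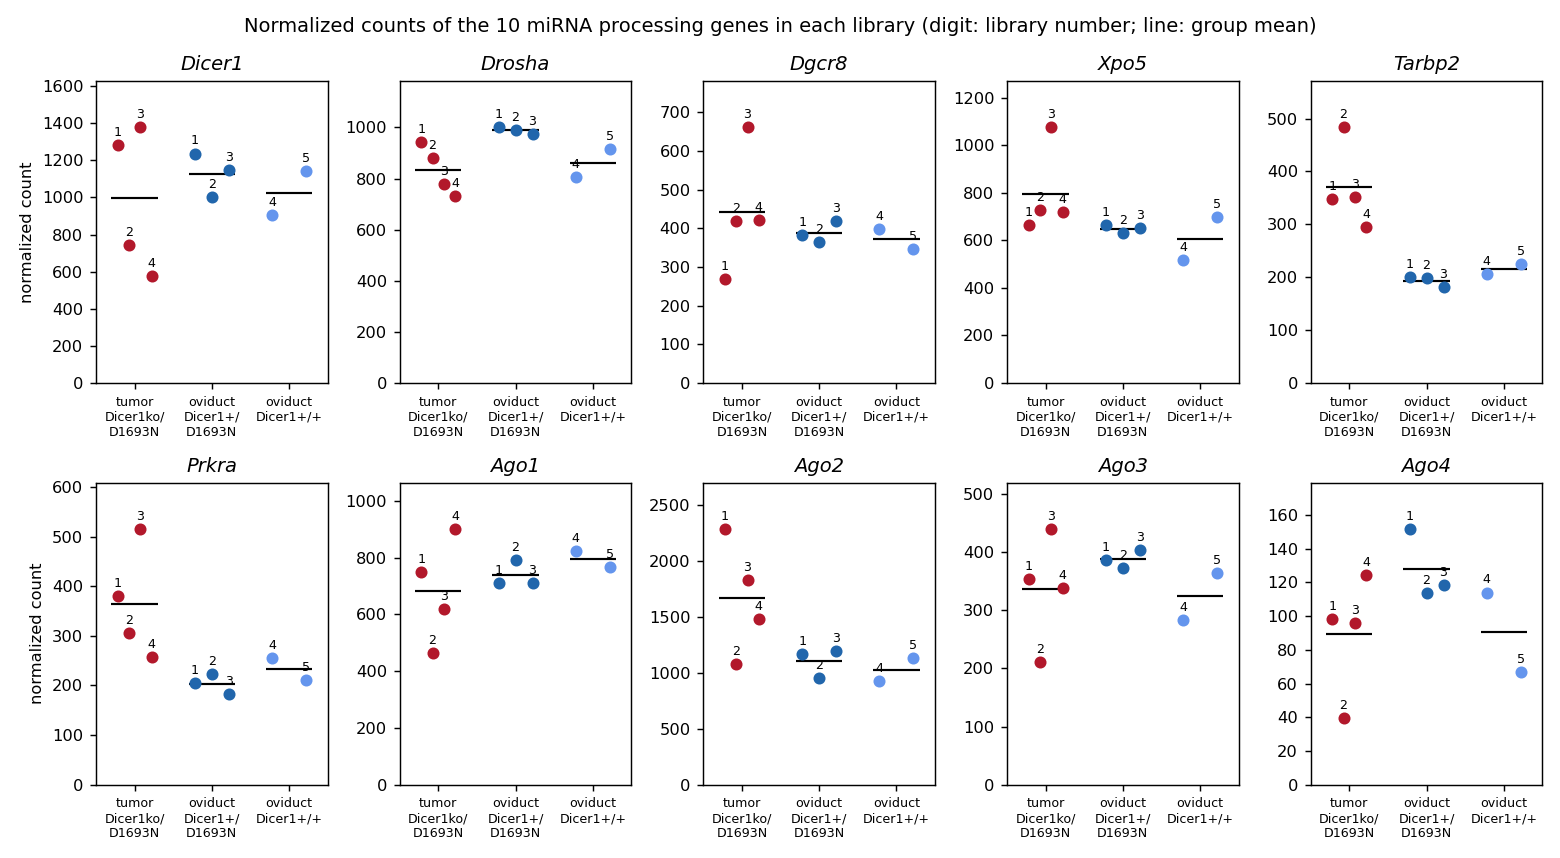
Normalized counts of each of the 10 genes in every library, with tumors left of Dicer1+/D1693N and Dicer1+/+ oviducts, the library number beside each point and a line at each group mean. Tarbp2 and Prkra lie higher in all 4 tumors than in all 5 oviducts, while Dicer1 splits the tumors into a pair above and a pair below every oviduct.

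Dicer1 (ENSMUSG00000041415.10) showed no detectable difference in average level between tumors and oviducts, and the tumors lay on both sides of the oviducts. It stood at 1283, 742, 1379 and 576 normalized counts in tumors 1 to 4, against 1237, 1005 and 1145 in Dicer1+/D1693N oviducts 1 to 3 and 904 and 1141 in Dicer1+/+ oviducts 4 and 5. Tumors 1 and 3 were above every oviduct, tumor 1 by little, and tumors 2 and 4 were below every oviduct. The values rest on 548 to 1321 reads in tumors and 1022 to 1342 in oviducts. The means were 995 ± 396 in tumors (SD, n = 4) and 1086 ± 131 in oviducts (n = 5). The log2 difference was -0.21 ± 0.25, with a 95% interval of -0.75 to 0.34 (limma adjusted p = 0.568). Without tumor 4 it was 0.02.

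The spread of Dicer1 was part of a wider pattern in the tumors. The SD of the deposited log2 values was larger among tumors than among oviducts for 10 of 10 members, and for 84.0% of all genes. Its median over the 10 members was 0.41 in tumors and 0.16 in oviducts, and over all genes 0.47 in tumors and 0.23 in oviducts. Among the members in tumors this SD was lowest for Drosha at 0.16 and highest for Dicer1 at 0.60, with Ago4 next at 0.56.

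Drosha, the nuclear RNase III enzyme, was close to even. Its values were 943, 880.1, 779 and 732 normalized counts in tumors 1 to 4, against 1001.3, 989 and 976 in Dicer1+/D1693N oviducts and 806 and 914 in Dicer1+/+ oviducts. Tumors 3 and 4 were below every oviduct and the other tumors lay within their range. The log2 difference was -0.17 ± 0.13 (95% interval -0.45 to 0.11, limma adjusted p = 0.343).

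Dgcr8, which recognizes the base of the primary hairpin, differed mostly between tumors. It stood at 268, 418, 662 and 421 normalized counts in tumors 1 to 4, against 382, 364 and 419.9 in Dicer1+/D1693N oviducts and 399 and 346 in Dicer1+/+ oviducts. Tumor 1 was below and tumors 3 and 4 were above every oviduct, tumor 4 only just. The difference was 0.14 ± 0.22 (95% interval -0.35 to 0.62, adjusted p = 0.674), and without tumor 3 it was -0.072. Dgcr8 messenger RNA is itself known as a Microprocessor substrate. Its exons contain the whole Mir1306 hairpin of 79 bases and the whole Gm24572 hairpin, of miR-3618, of 88 bases. The exons of Dgcr8 also share 327 bases with those of Gm49776, a protein-coding gene on the same strand. They share 825 bases with those of Trmt2a on the opposite strand, and whether reads were counted by strand was not given in the sources used here.

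Xpo5, the export factor, was higher in most tumors without passing the test. It stood at 666, 728, 1076 and 717 normalized counts in tumors 1 to 4, against 665, 632 and 652 in Dicer1+/D1693N oviducts and 516 and 697 in Dicer1+/+ oviducts. Tumors 2, 3 and 4 were above every oviduct, and tumor 1 was within their range. The difference was 0.31 ± 0.16 (95% interval -0.06 to 0.67, adjusted p = 0.183), and without tumor 3 it was 0.16.

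The balance of the 2 RNase III enzymes within each library was compared as the ratio of Dicer1 to Drosha normalized counts. It was 1.36, 0.84, 1.77 and 0.79 in tumors 1 to 4, against 1.24, 1.02, 1.17, 1.12 and 1.25 in oviducts 1 to 5. The ratio thus lay above the oviducts in tumors 1 and 3 and below them in tumors 2 and 4, as the Dicer1 level did. The mean log2 ratio was 0.17 ± 0.56 in tumors and 0.21 ± 0.12 in oviducts, a difference of -0.04 (two-sided exact permutation test over all arrangements of the libraries, p = 0.905). Without tumor 2 the difference was 0.10 and without tumor 4 it was 0.13.

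Tarbp2 (ENSMUSG00000023051.11, GRCm38 chromosome 15, 102518192 to 102523676, plus strand) rose in the tumors. TARBP2 stabilizes DICER1 and takes part in loading Argonaute. It stood at 349, 484, 352 and 295 normalized counts in tumors 1 to 4, against 201, 199 and 181 in Dicer1+/D1693N oviducts and 207 and 224 in Dicer1+/+ oviducts. Every tumor was above every oviduct. The means were 369.8 ± 80.4 in tumors (SD, n = 4) and 203 ± 15.6 in oviducts (n = 5), a ratio of 1.83. The log2 difference was 0.79 ± 0.17 (95% interval 0.42 to 1.16, limma adjusted p = 0.005). It kept its call without any 1 of the 9 libraries, with values of 0.66 to 0.88 and an adjusted p of at most 0.0168.

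Prkra (ENSMUSG00000002731.6, GRCm38 chromosome 2, 76629898 to 76648015, minus strand) rose with less certainty. Its product, PACT in older usage, binds DICER1 and is also known as an activator of the kinase PKR. It stood at 381, 306, 516 and 258 normalized counts in tumors 1 to 4, against 204, 223 and 183 in Dicer1+/D1693N oviducts and 256 and 209.9 in Dicer1+/+ oviducts. The groups did not overlap, but tumor 4 at 257.7 was barely above oviduct 4 at 255.5. The means were 365 ± 113 in tumors (n = 4) and 215 ± 26.7 in oviducts (n = 5), a ratio of 1.70. The log2 difference was 0.67 ± 0.20 (95% interval 0.22 to 1.12, limma adjusted p = 0.0292). It did not hold when oviduct 1, 2, 3 or 5 or tumor 1 or 3 was dropped singly, with an adjusted p of up to 0.0716. Tarbp2 and Prkra were the only members whose groups did not overlap, against 27.6% of all genes in either direction and 10.8% with the tumors higher.

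**Figure D2:**
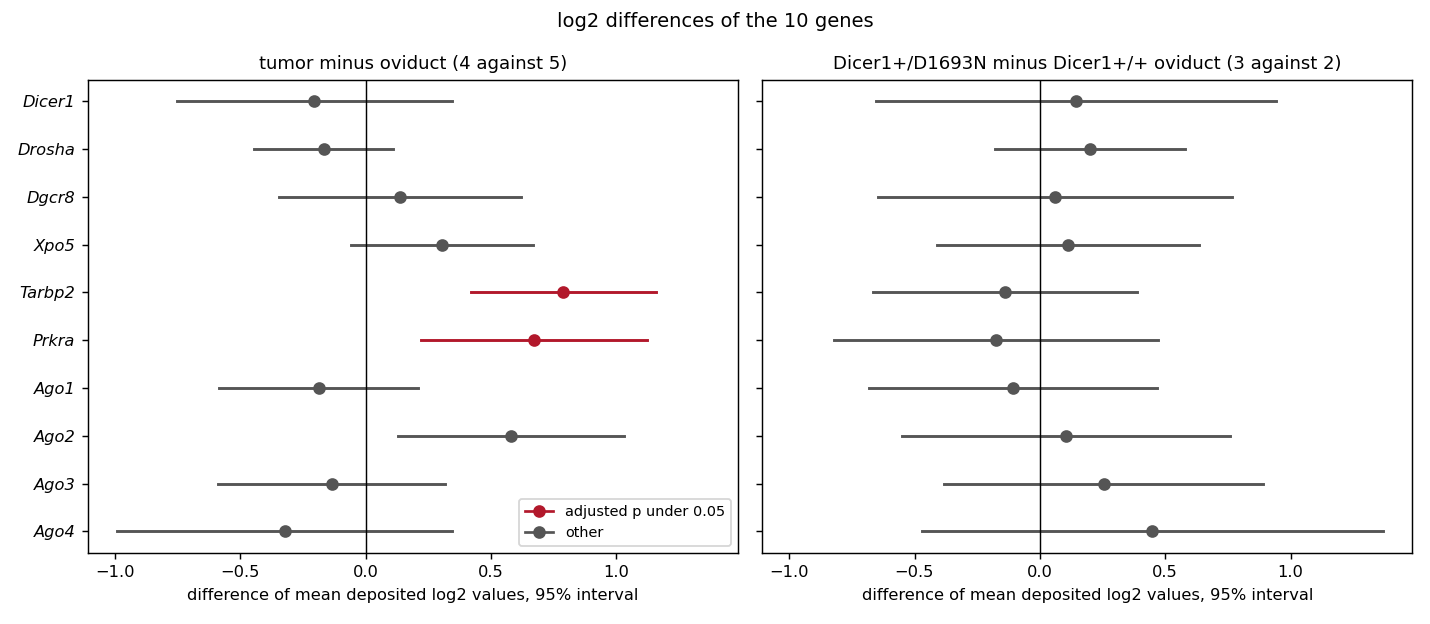
Differences of mean deposited log2 values for the 10 genes with their 95% intervals, tumor minus oviduct at left and Dicer1+/D1693N minus Dicer1+/+ oviduct at right. At left Tarbp2 (0.79) and Prkra (0.67) passed the test and Ago2 (0.58) has an interval above 0, and at right every interval includes 0.

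Tarbp2 and Prkra moved in the same direction, so their promoters, 250 bases before to 50 after the RefSeq gene start, are shown. The build is GRCm38.p6, and capitals mark matches to the GC box GGGCGG on either strand (CCGCCC), a sequence bound by SP1 family factors. The Tarbp2 promoter is at chr15:102517942-102518241 on the plus strand and the Prkra promoter at chr2:76647978-76648277 on the minus strand.
Tarbp2 promoter: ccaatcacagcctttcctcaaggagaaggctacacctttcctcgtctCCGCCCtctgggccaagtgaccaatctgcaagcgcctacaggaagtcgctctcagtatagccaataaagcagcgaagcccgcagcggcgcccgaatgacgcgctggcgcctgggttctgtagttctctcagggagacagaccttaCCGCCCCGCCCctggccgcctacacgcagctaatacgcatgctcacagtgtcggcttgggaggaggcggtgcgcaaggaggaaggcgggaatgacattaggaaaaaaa
Prkra promoter: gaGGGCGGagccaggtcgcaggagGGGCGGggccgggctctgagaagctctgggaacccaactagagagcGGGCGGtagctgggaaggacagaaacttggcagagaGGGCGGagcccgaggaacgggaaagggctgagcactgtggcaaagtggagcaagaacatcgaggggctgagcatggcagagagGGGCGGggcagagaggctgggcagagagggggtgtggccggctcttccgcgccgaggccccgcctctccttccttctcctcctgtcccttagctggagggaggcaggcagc
The Tarbp2 promoter held 3 GC boxes, the last 2 of which overlap by 1 base, with 21 CpG dinucleotides and 59.0% GC. The Prkra promoter held 5 GC boxes, with 16 CpG and 67.3% GC. RefSeq promoter entries matched 9 of the 10 genes, with 2 entries for Ago1. Of these 10 entries 9 held a GC box, as did 35.7% of all 32851 promoters in the table, whose medians were 7 CpG and 52.7% GC. The exception was Drosha. The motif TTTCCCGC, or GCGGGAAA on the other strand, bound by E2F factors, was in 0 of 10 entries and in 1.07% of all promoters. The motifs were picked after the differences were known, and matches are given as a description of these windows only.

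Relative to Dicer1, both partner genes took a larger place in the tumors. The ratio of Tarbp2 to Dicer1 normalized counts was 0.27, 0.65, 0.26 and 0.51 in tumors 1 to 4, against 0.16 to 0.23 in the oviducts. The ratio of Prkra to Dicer1 was 0.30, 0.41, 0.37 and 0.45 in tumors 1 to 4, against 0.16 to 0.28 in the oviducts. Both ratios were higher in every tumor than in every oviduct, as were the Tarbp2 and Prkra levels themselves. Of all genes 10.8% had levels higher in every tumor than in every oviduct. The longest transcript is 2732 bases for Tarbp2 and 1614 for Prkra, against 9851 for Dicer1. The trend with transcript length described below was not taken out of these ratios. These ratios were calculated after the levels were seen and were not tested.

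Among the Argonaute genes, Ago2, which encodes the only mouse Argonaute known to cleave targets efficiently, was higher in most tumors and narrowly missed the threshold. It stood at 2291, 1083, 1832 and 1484 normalized counts in tumors 1 to 4, against 1169, 958 and 1198 in Dicer1+/D1693N oviducts and 924 and 1135 in Dicer1+/+ oviducts. Tumors 1, 3 and 4 were above every oviduct, and tumor 2 was within their range. The means were 1673 ± 513 in tumors (n = 4) and 1077 ± 126.4 in oviducts (n = 5), a ratio of 1.55. The log2 difference was 0.58 ± 0.20 (95% interval 0.13 to 1.03, limma adjusted p = 0.052). It passed without tumor 2 at 0.77 (adjusted p = 0.00984) and after quantile normalization at 0.49 (adjusted p = 0.0477). It did not pass when any other library was dropped singly, with the lowest value of 0.41 without tumor 1 (adjusted p = 0.115), nor with library weights at 0.39 (adjusted p = 0.167). The exons of Ago2 share 219 bases with those of Chrac1 on the opposite strand.

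The other Argonautes, which bind miRNAs and silence without efficient slicing, did not pass. Tumors lay on both sides of the oviduct levels for Ago1 and Ago3, and within or below them for Ago4. Ago1 stood at 748, 464, 618 and 901 normalized counts in tumors 1 to 4, against 709, 793 and 711 in Dicer1+/D1693N oviducts and 822 and 768 in Dicer1+/+ oviducts. Tumor 4 was above every oviduct and tumors 2 and 3 were below, and the difference was -0.19 ± 0.18 (95% interval -0.58 to 0.21, adjusted p = 0.459). Without tumor 2 it was -0.023 and without tumor 4 it was -0.33. Ago3 stood at 355, 211, 440.2 and 339 in tumors 1 to 4, against 386, 373 and 404 in Dicer1+/D1693N oviducts and 284 and 364 in Dicer1+/+ oviducts. Tumor 3 was above and tumor 2 below every oviduct, and the difference was -0.14 ± 0.20 (95% interval -0.59 to 0.32, adjusted p = 0.657). Without tumor 2 it was 0.058. Ago4, the least abundant member, stood at 98.1, 39.7, 95.7 and 124 in tumors 1 to 4, against 152, 114 and 118 in Dicer1+/D1693N oviducts and 114 and 67.0 in Dicer1+/+ oviducts. Only tumor 2, with 35 reads, was below every oviduct, and the difference was -0.32 ± 0.30 (95% interval -0.99 to 0.34, adjusted p = 0.449). Without tumor 2 it was -0.052 and with library weights -0.66, neither of which passed.

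Ago2 took a larger share of the Argonaute messenger RNA in the tumors. The share was calculated from normalized counts per kilobase of merged exons, summed over the 4 genes. Ago2 made up 56.1%, 50.5%, 52.9% and 41.5% in tumors 1 to 4, against 38.6%, 33.3%, 39.8%, 32.8% and 39.1% in oviducts 1 to 5. Every tumor was above every oviduct, tumor 4 by the smallest margin. The means were 50.2% ± 6.3 in tumors (SD, n = 4) and 36.7% ± 3.4 in oviducts (n = 5), a difference of 13.5 percentage points. The two-sided exact permutation test gave p = 0.0159, the smallest that 4 libraries against 5 allow, and 0.0317 when adjusted over this share and the Dicer1 to Drosha ratio. Any value whose groups do not overlap gives this p. The levels of 27.6% of all genes separated the groups in the same way, 10.8% with the tumors higher. Ago1 made up 35.9% ± 5.9 in tumors and 45.0% ± 4.3 in oviducts. Ago3 made up 8.6% ± 1.5 in tumors and 10.5% ± 1.1 in oviducts, and Ago4 5.3% ± 1.4 in tumors and 7.8% ± 2.0 in oviducts. The shares sum to 100%, so a larger share of Ago2 lowers the others.

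**Figure D3:**
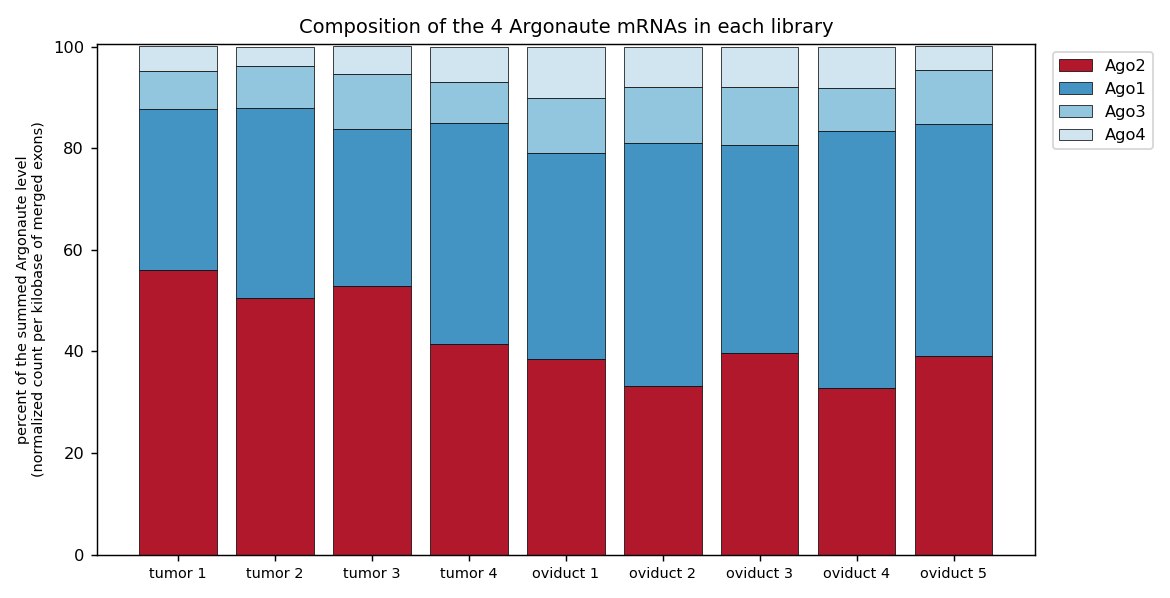
Share of each of the 4 Argonaute genes in their summed level per kilobase of merged exons, as a stacked bar of 100% per library, with tumors at left. Ago2 makes up 41.5% to 56.1% in tumors and 32.8% to 39.8% in oviducts.

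Transcript length moved with several of these values. Among genes above the median level, the median log2 deviation from the oviduct median was 0.09, 0.32, -0.15 and 0.22 in tumors 1 to 4 for the 1570 genes with longest transcripts under 2 kilobases. For the 433 genes with transcripts of 9 kilobases or more it was 0.05, -0.54, 0.14 and -0.26 in tumors 1 to 4, and -0.10 to 0.07 in the oviducts. Tumors 2 and 4 thus read short transcripts higher and long ones lower, and tumor 3 the reverse. The longest transcript is 9851 bases for Dicer1, 13800 for Ago2 and 15595 for Ago3, against 2732 for Tarbp2 and 1614 for Prkra.

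With that trend taken out of each library, an alternative chosen after the data were seen, Dicer1 drew closer together. It then stood at 1170.1, 979, 1209 and 631 normalized counts in tumors 1 to 4, against 1125, 983 and 1072 in Dicer1+/D1693N oviducts and 938 and 1164 in Dicer1+/+ oviducts. Tumor 4 alone was far below the oviducts, and the difference was -0.12 (limma adjusted p = 0.665). Ago2 stood at 2083, 1557, 1603 and 1685 in tumors 1 to 4, against 1026, 919.8 and 1071 in Dicer1+/D1693N oviducts and 958 and 1149 in Dicer1+/+ oviducts. Its groups no longer overlapped, and it passed with a difference of 0.74 (adjusted p = 0.00129). Tarbp2 kept its call at 0.73 (adjusted p = 0.00579), while Prkra lost it at 0.61 (adjusted p = 0.0771). Under this alternative 2 of 10 members passed, Tarbp2 and Ago2, against 32.3% of the 18544 genes with an annotated length.

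**Figure D4:**
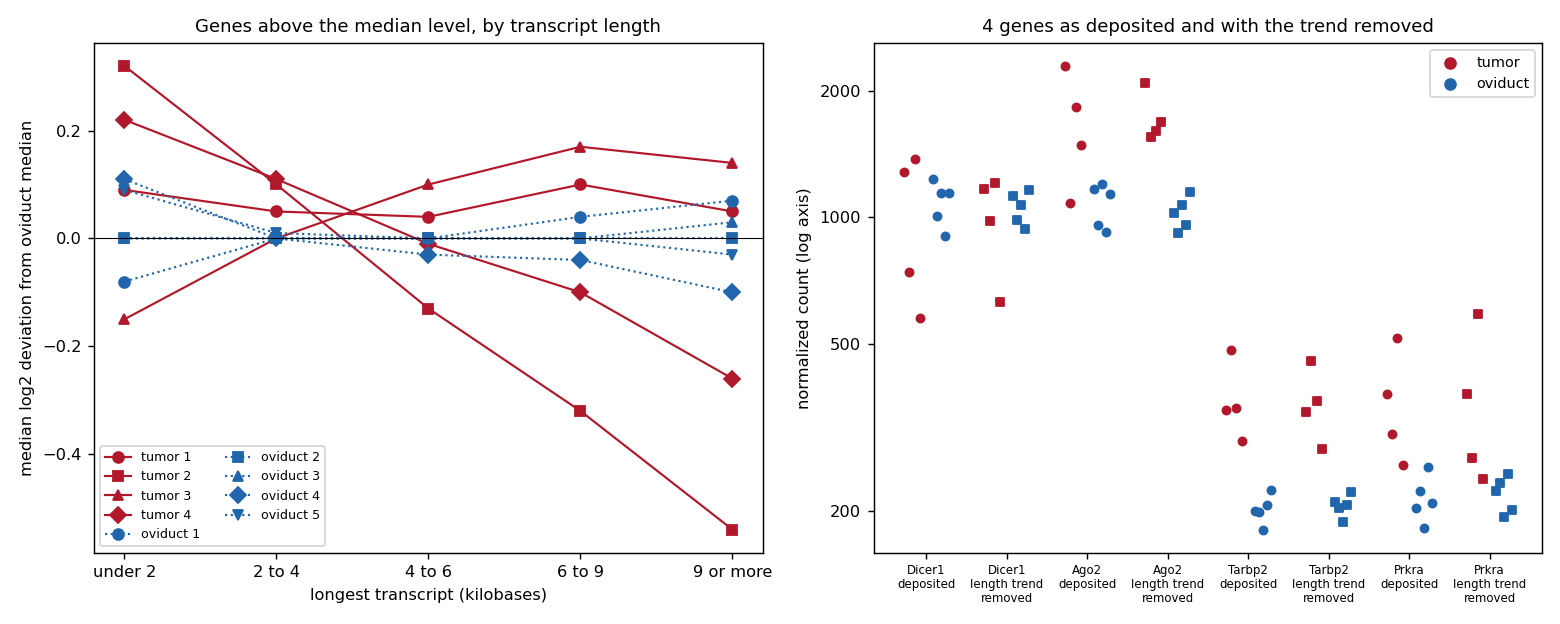
Left, median log2 deviation from the oviduct median against the longest transcript of a gene in kilobases, with 1 line per library. Right, normalized counts on a log axis of Dicer1, Ago2, Tarbp2 and Prkra as deposited and with the length trend removed, tumors left of oviducts: the lines of tumors 2 and 4 fall with length, and Ago2 separates the groups once the trend is removed.

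The oviduct genotypes allow the tumors to be set against each kind of normal oviduct, in a model with 3 groups and a shared spread. These 2 comparisons use the same tumors and are not independent. Tarbp2 was higher in tumors than in Dicer1+/D1693N oviducts by 0.85 ± 0.20 (limma adjusted p = 0.0138), which dropping any single oviduct of that genotype moved past the threshold (adjusted p of up to 0.0666). Against Dicer1+/+ oviducts the Tarbp2 difference was 0.70 ± 0.22 (adjusted p = 0.06). Prkra differed by 0.74 ± 0.24 from Dicer1+/D1693N oviducts (adjusted p = 0.0521) and by 0.57 ± 0.27 from Dicer1+/+ oviducts (adjusted p = 0.191). Ago2 differed by 0.54 ± 0.24 from Dicer1+/D1693N oviducts (adjusted p = 0.142) and by 0.64 ± 0.28 from Dicer1+/+ oviducts (adjusted p = 0.146). Dicer1 differed by -0.26 ± 0.30 from Dicer1+/D1693N oviducts (adjusted p = 0.563) and by -0.12 ± 0.34 from Dicer1+/+ oviducts (adjusted p = 0.841). In all, 1 of 10 members passed against Dicer1+/D1693N oviducts, where 23.7% of all genes did. Against Dicer1+/+ oviducts 0 of 10 passed by limma, where 16.5% of all genes did. Without adjustment 2 of 10, Tarbp2 and Ago2, had a p under 0.05, against 31.3% of all genes. Without tumor 2 Ago2 passed against both kinds of oviduct (adjusted p = 0.0376 and 0.043). Without tumor 4 Prkra passed against Dicer1+/D1693N oviducts (adjusted p = 0.0183) and Tarbp2 against Dicer1+/+ oviducts (adjusted p = 0.0273).

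Carrying the D1693N allele beside a normal one came with no detectable difference in any of the 10 genes at this sample size. Dicer1 averaged 1129 ± 117 normalized counts in Dicer1+/D1693N oviducts (SD, n = 3) and 1023 ± 168 in Dicer1+/+ oviducts (n = 2). The difference was 0.14 ± 0.35, with a 95% interval of -0.65 to 0.94 (limma adjusted p = 1), which reaches nearly 1 log2 unit upward. Over the 10 members the differences ran from -0.18 for Prkra to 0.45 for Ago4. Of the members 0 passed by limma with an adjusted p under 0.05, against 0.0206% of all genes (4 genes). Without adjustment 0 of 10 members and 2.75% of all genes had a p under 0.05. The median difference was 0.11 over the 10 members and 0.01 over all genes.

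To compare levels between genes, normalized counts were divided by the length of the merged exons. In the tumors the mean level per kilobase was 179.9 ± 55.5 for Prkra, 140.4 ± 16.1 for Drosha, 119 ± 36.6 for Ago2, 116 ± 27.4 for Xpo5 and 84.1 ± 22.9 for Ago1. It was 81.3 ± 17.7 for Tarbp2, 59.4 ± 23.6 for Dicer1, 57.5 ± 21.2 for Dgcr8, 20.3 ± 5.7 for Ago3 and 12.9 ± 5.1 for Ago4. Only Dgcr8 and Ago3, among neighbours in this order, had ranges that did not overlap.

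In the oviducts the order per kilobase was led by Drosha at 158 ± 13.6, ahead of Prkra at 106 ± 13.2, Ago1 at 93.7 ± 6.2, Xpo5 at 92.2 ± 10.1 and Ago2 at 76.8 ± 9.0. Then came Dicer1 at 64.9 ± 7.8, Dgcr8 at 49.6 ± 3.7, Tarbp2 at 44.5 ± 3.4, Ago3 at 21.9 ± 2.8 and Ago4 at 16.3 ± 4.4. Neighbours without overlap were Drosha and Prkra, and Tarbp2 and Ago3. The RNase III enzyme of the nucleus thus stood above that of the cytoplasm per unit of exon length in both groups. The order depends on the length used: with the longest transcript in its place, 5 of 10 genes kept their rank in each group.

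The genes whose profile over the 9 libraries was most like that of Dicer1, among 9708 genes above the median level, included Pcm1, Slain2, Casc4 and Pias2. Their Pearson correlations of deposited log2 values with Dicer1 were 0.984, 0.978, 0.969 and 0.968. Pcm1, which encodes a protein of the centriolar satellites, stood at 1752, 929, 2112 and 815 normalized counts in tumors 1 to 4, against 1217 to 1684 in the oviducts. Like Dicer1 it was high in tumors 1 and 3 and low in tumors 2 and 4. Of the other members Ago3 was most like Dicer1 at 0.633, followed by Drosha at 0.519, Ago2 at 0.315 and Xpo5 at 0.255. Prkra (0.197), Ago4 (0.193), Dgcr8 (0.005), Ago1 (-0.096) and Tarbp2 (-0.24) followed. The 9 libraries are shared by all these pairs, and so are the differences in transcript length described above.

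The rest of the pathway was described by 4 lists, 45 genes in all, and every gene was in the table. In the loading and import list Ran, the GTPase that drives XPO5, rose, and the chaperone Hsp90aa1 fell, 1 of 7 genes in each direction, with a median difference of 0.17. Ran stood at 1784, 2335, 1871 and 2164 normalized counts in tumors 1 to 4, against 939.9 to 1519.5 in the oviducts, with no overlap (0.82 ± 0.16, limma adjusted p = 0.00308). Hsp90aa1, an inducible HSP90 that helps to open Argonaute for the duplex, stood at 3987, 4772, 4175 and 3689 in tumors 1 to 4, against 7246 to 10415 in the oviducts, with no overlap (-1.15 ± 0.16, adjusted p = 0.000504). Ipo8, Fkbp4, Ptges3, Hspa8 and Hsp90ab1 did not pass.

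Of the 11 Microprocessor partners 3 rose and 1 fell, with a median difference of 0.03. Hnrnpa1, an RNA binding protein that reshapes the miR-18a hairpin, rose by 1.24 ± 0.23 (adjusted p = 0.00224), with 4080.4 to 9092 normalized counts in tumors and 2486 to 3330.4 in oviducts. Erh, a small dimeric partner of DGCR8, rose by 0.69 ± 0.20 (adjusted p = 0.0221, but up to 0.0627 when oviduct 2 or tumor 2 was dropped). Srsf3, which binds beside the hairpin base, rose by 0.54 ± 0.17 (adjusted p = 0.0321, but up to 0.0718 when oviduct 1, 2, 3 or 4 or tumor 1 or 3 was dropped singly). Srsf3 also did not pass after quantile normalization (limma adjusted p = 0.075), without the variance trend (0.0503) or with library weights (0.0573). Safb2, which helps DROSHA to cut clustered hairpins, fell to 796 to 1176 normalized counts in tumors, against 1295 to 1675 in oviducts (-0.56 ± 0.14, adjusted p = 0.0135). Hnrnpa1, Erh, Ran and Hspa8 have many near-identical pseudogene copies that could take or lend reads, so their values are uncertain.

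Of the 16 silencing effectors 4 rose and 1 fell, with a median difference of 0.15. The 3 Tnrc6 genes, whose GW182 proteins bridge Argonaute and deadenylases, did not pass. Nor did Ddx6, Cnot1 (-0.07, adjusted p = 0.74 by limma), Cnot3, Pan2, Dcp1a, Dcp2, Edc4 and Xrn1. Cnot6, a deadenylase of the CCR4-NOT complex, stood at 1641, 1364, 2609 and 1599.6 normalized counts in tumors 1 to 4, against 943 to 1159.8 in oviducts (0.74 ± 0.18, adjusted p = 0.0103). The groups did not overlap. Cnot2, another gene of the CCR4-NOT complex, rose by 0.44 ± 0.13 (adjusted p = 0.0222, but 0.0509 without oviduct 1). The deadenylase gene Cnot7 rose by 0.44 ± 0.14 (adjusted p = 0.0368), and the helicase gene Mov10 rose by 0.58 ± 0.18 (adjusted p = 0.0324). Cnot7 did not pass when oviduct 2, 3, 4 or 5 or tumor 1 or 3 was dropped singly (adjusted p of up to 0.0822). It also did not pass without the variance trend (limma adjusted p = 0.0617) or with library weights (0.0847). Mov10 did not pass when oviduct 1, 3, 4 or 5 or tumor 2 or 3 was dropped singly (adjusted p of up to 0.0772). Pan3, of the PAN2-PAN3 deadenylase, fell to 620.0 to 827 normalized counts in tumors, against 983 to 1204 in oviducts (-0.58 ± 0.13, adjusted p = 0.00623).

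Of the 11 genes of precursor control and turnover 3 rose and 1 fell, with a median difference of 0.17. Lin28a, which blocks processing of let-7 precursors, stood at 226, 20.4, 118 and 8.4 normalized counts in tumors 1 to 4. It had 0 reads in the 3 Dicer1+/D1693N oviducts and 2 and 1 reads in the Dicer1+/+ oviducts. The groups did not overlap, and the difference was 2.63 ± 0.59 on the deposited scale (adjusted p = 0.00737), which understates the change of a gene with so few reads. Its homolog Lin28b stood at 538, 4.5, 2.3 and 0.0 normalized counts in tumors 1 to 4 and had 0 reads in every oviduct, which allows up to 3.35 normalized counts in a library (3 reads). Tumor 1 alone was high (adjusted p = 0.176). Papd4 (now Tent2), a poly(A) polymerase that extends miRNA ends, stood at 1174, 586, 746 and 512 in tumors 1 to 4, against 322 to 383 in oviducts (0.97 ± 0.22, adjusted p = 0.00692). Xrn2, a nuclear 5′ to 3′ exonuclease, rose by 0.68 ± 0.15 (adjusted p = 0.00655). Adarb1, an RNA editing deaminase, fell to 157, 151, 124 and 339.7 normalized counts in tumors 1 to 4, against 604 to 811 in oviducts (-1.87 ± 0.25, adjusted p = 3e-04).

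Over the 4 lists 15 of 45 genes passed between tumors and oviducts, 11 higher and 4 lower, a share of 33.3% that is close to the 31.1% of all genes. By direction the match was less close. The 11 higher were a larger share of the 45 than the 12.6% of all genes called higher. The 4 lower were a smaller share than the 18.5% of all genes called lower. The lists were chosen with earlier results of these data known, and this difference in direction was not tested. Against Dicer1+/D1693N oviducts 7 of the 45 were higher and 4 lower in tumors, where 8.7% of all genes were higher and 15% lower. Against Dicer1+/+ oviducts 3 of the 45 were higher and 2 lower, where 5.32% of all genes were higher and 11.2% lower. Between Dicer1+/D1693N and Dicer1+/+ oviducts 0 of the 45 passed by limma, against 0.0206% of all genes. Without adjustment 1 had a p under 0.05, against 2.75% of all genes.

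**Figure D5:**
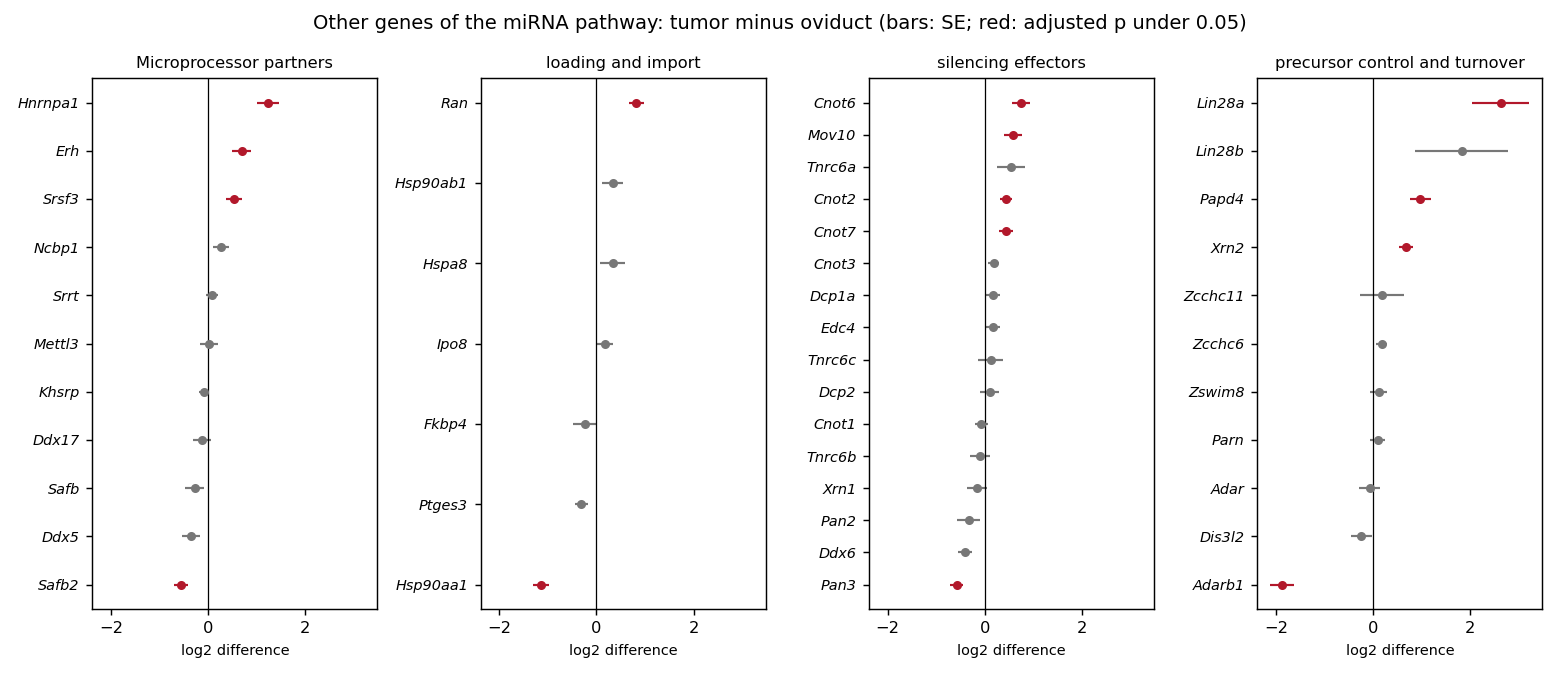
Differences of mean deposited log2 values, tumor minus oviduct, of the genes of the 4 wider pathway lists, with bars of 1 SE and red for an adjusted p under 0.05. Red points lie on both sides of 0 in each list, from -1.87 for Adarb1 to 2.63 for Lin28a.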

How the data were processed

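Poly-A RNA of 9 libraries was sequenced. The submitters' processing notes name FastQC 0.11.5, STAR 2.5.3a, HTSeq and GRCm38 (mm10). The counting annotation and strandedness were not given in the sources used here. The deposited values are on a log2 scale with a floor of 3.427, and their transformation is not stated. Inverting a variance-stabilizing transformation of parametric form gave whole reads in 100% of values (tolerance 0.05 reads), and from these the normalized counts. Every gene had at least 10 reads in total.

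Groups came from the labels. Differences were tested on the deposited log2 values with limma 3.58.1 in R 4.3.3 (trend in the prior variance, two-sided, Benjamini-Hochberg over 19435 genes), in a model with 2 groups and one with 3. The Dicer1 to Drosha ratio and the Ago2 share were tested with SciPy 1.17.1. Gene positions, lengths and the codon came from GENCODE M21 on GRCm38, and promoters from RefSeq on GRCm38.p6. The 10 members were all named, with at most 4 genes per direction of each wider list, those with the largest differences among genes that passed, and the 5 genes most like Dicer1, of which 1 is not reported here. Lin28b was added after its values were seen. The members and lists were chosen with earlier results of these data known. The alternatives were quantile normalization, log2(normalized count + 1), limma-voom on recovered reads, a filter on low genes, no variance trend, library weights, a replicate block, leaving out each library, other lengths or controls and, chosen after the data were seen, removal of a length trend per library.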

Additional observations from a re-analysis of the deposited data

How the results depend on the processing

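Between tumors and oviducts 2 members passed as reported, against 31.1% of all genes, and 3 after quantile normalization, against 31.4%. With the replicate number as a block 1 passed, against 21.6% of all genes. Leaving out each library in turn gave 1 to 3 members, against 24.4% to 35.1% of all genes. Against Dicer1+/D1693N oviducts 1 passed as reported, 2 after quantile normalization, 2 among genes above the median level, 2 with the length trend removed and 0 to 2 without single libraries. Against Dicer1+/+ oviducts 0 passed as reported, 1 after quantile normalization, 1 with the length trend removed and 0 to 1 without single libraries. The share of all genes passing against Dicer1+/D1693N oviducts was 23.7% as reported and 24.9% with the length trend removed. Against Dicer1+/+ oviducts it was 16.5% as reported and 17.1% with the length trend removed. For the other settings of these comparisons that share was not calculated. The cause of these shifts was not tested. Quantile normalization moved the median log2 difference of all genes to 0.08, against -0.05 as reported. Labels do not pair the libraries, and deviations from the group means of same-numbered libraries correlated at 0.117, 0.061, -0.089 and 0.006. With the replicate block the Tarbp2 difference was 0.82 (limma adjusted p = 0.0331), and the calls of Prkra, Safb2, Mov10, Cnot2 and Cnot7 were lost (adjusted p of up to 0.121). Oviduct 5 is alone under its number, so it adds nothing to these differences. They equal those without oviduct 5 (0.82 for Tarbp2 and 0.67 for Prkra), and the block also leaves fewer degrees of freedom. In that block against Dicer1+/D1693N oviducts 1 member passed.

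The Ago2 share exceeded the oviduct share by 13.0 percentage points with the Dicer1+/D1693N oviducts alone as controls (exact permutation p = 0.0571, the smallest that 4 against 3 allow) and by 11.5 to 16.4 without single libraries. The difference in log2 Dicer1 to Drosha ratio was -0.26 to 0.13 without single libraries and 0.046 with the length trend removed. With the longest transcript as length, 5 members kept their place in the tumors and 5 in the oviducts.

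Signs turned only for differences that did not pass. With the length trend removed these were Ago3 at 0.062 between tumors and oviducts and 0.035 against Dicer1+/D1693N oviducts, and Ago2 at -0.066 between Dicer1+/D1693N and Dicer1+/+ oviducts. After quantile normalization it was Ago4 at 0.12 against Dicer1+/+ oviducts. Without single libraries the ranges that crossed 0 were, between tumors and oviducts, -0.39 to 0.02 for Dicer1, -0.072 to 0.34 for Dgcr8 and -0.27 to 0.058 for Ago3. Against Dicer1+/D1693N oviducts they were -0.10 to 0.32 for Dgcr8 and -0.29 to 0.02 for Ago1. Against Dicer1+/+ oviducts they were -0.30 to 0.11 for Dicer1, -0.14 to 0.041 for Drosha, -0.037 to 0.38 for Dgcr8, -0.15 to 0.21 for Ago3 and -0.37 to 0.26 for Ago4. Between Dicer1+/D1693N and Dicer1+/+ oviducts they were -0.02 to 0.31 for Dicer1, -0.037 to 0.16 for Dgcr8, -0.10 to 0.32 for Xpo5 and -0.041 to 0.25 for Ago2. Depth limits Ago4 most, and the number of Dicer1+/+ libraries, 2, limits the comparisons with that genotype.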
